A study of Mus musculus with 7 samples.

Results

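The simple epithelial keratins Krt7, Krt8, Krt18, Krt19, Krt20 and Krt23 were followed through sorted cells of the mouse intestine. They were the gene probes whose gene name on the array was 1 of these 6 symbols: 8 probes of 41174 gene probes, and 6 of the 17545 genes tested. Cells came from Dll1-EGFP-ires-CreERT2 mice, in which the Dll1 promoter drives EGFP and CreERT2, and were sorted for high GFP and for CD24 at a high, medium or low level, with 2 biological replicates at each level. A further fraction, the GFP-high cells of Lgr5-EGFP-ires-CreERT2 mice, was represented by 1 array. Its own spread is unknown, every standard error and p against it comes from the spread of the Dll1 replicates on the assumption that it varies like them, and no setting could test the result without it. Each of the 7 dual-colour arrays carried 1 sorted fraction in Cy3 and RNA of whole small intestine in Cy5. No age, sex, treatment or number of pooled animals is given in the sources used here. Nothing ties a replicate to named animals, so the p-values measure the spread between these samples, which may be partly technical.

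Keratins are the intermediate filament proteins of epithelial cells. A filament is built from obligate pairs of 1 type II and 1 type I chain, and simple, single-layered epithelia use Krt8 and Krt7 as type II partners for the type I chains Krt18, Krt19, Krt20 and Krt23. In the intestine Krt8, Krt18 and Krt19 are found along the whole crypt to villus axis, whereas Krt20 is known as a keratin of differentiated cells. Type I and type II genes lie in 2 separate clusters, and the reference annotation lists 27 keratin genes on chromosome 11 and 26 on chromosome 15. Krt8 and Krt18 are direct neighbours among protein-coding genes, as are Krt20 and Krt23, while Krt18 is the 1 type I gene here that lies in the type II cluster.

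The probes that measured the filament pair Krt8 and Krt18, and Krt19, are shown because most comparisons below read these stretches of the transcripts. For Krt8 and Krt18 only the coding part of the 60-base probe is printed, with the stop codon in capitals, so these probes read the 3′ end of the messages. The second Krt7 probe, also printed, lies within the coding sequence. Sequences are 5′ to 3′ on the transcript strand.
Krt8: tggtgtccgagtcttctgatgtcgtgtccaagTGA
Krt18: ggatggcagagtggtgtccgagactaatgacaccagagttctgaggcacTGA
Krt19: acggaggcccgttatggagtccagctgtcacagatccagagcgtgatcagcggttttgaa
Krt7, second probe: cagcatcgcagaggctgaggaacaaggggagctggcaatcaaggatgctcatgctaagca
In mm9 coordinates from the array files, the probe used for Krt8 lay at chr15:101827346-101827405, that for Krt18 at chr15:101862341-101862400 and that for Krt19 at chr11:100002392-100002451. The probe used for Krt20 lay at chr11:99289776-99289835, that for Krt23 at chr11:99339393-99339452 and that for Krt7 at chr15:101258172-101258231, with the second Krt7 probe at chr15:101253718-101253777 and the second Krt8 probe at chr15:101827214-101827273. All 8 probes were well above background in both channels on 7 of 7 arrays, with 0 saturated spots.

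Krt20 gave the largest differences, so the 250 bases upstream of its annotated start are shown (RefSeq, GRCm38.p6, chr11:99438154-99438403, minus strand), with the letters TATAAA in capitals.
Krt20 promoter: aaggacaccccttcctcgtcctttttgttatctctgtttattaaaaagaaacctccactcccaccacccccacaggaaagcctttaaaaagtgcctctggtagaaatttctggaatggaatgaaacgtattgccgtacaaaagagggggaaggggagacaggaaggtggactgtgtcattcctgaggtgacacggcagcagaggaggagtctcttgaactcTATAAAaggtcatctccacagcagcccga
TATAAA, the letters of a TATA box, began 29 bases before the annotated start. TTTAT, the core letters bound by caudal-type homeobox factors such as Cdx1 and Cdx2, was found on either strand 214 and 28 bases before the start, the nearer match overlapping TATAAA. RefSeq promoter windows were matched for 5 of the 6 keratins. TATAAA was also in the Krt8 window, TTTAT was in the windows of Krt7, Krt8 and Krt23, and the Krt18 window held neither. Of all 32851 promoter windows of 300 bases, 13.6% held TATAAA and 40% held TTTAT on either strand, so a match describes the sequence and is no evidence of binding.

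Values are log2 ratios of sorted cells to whole small intestine after loess normalization within each array. A value of 0 means the level of the whole tissue as set by that normalization, and differences between groups are differences of these ratios. In bulk RNA, fewer cells that express a gene and less RNA per expressing cell cannot be told apart. Tests used limma over all 17545 genes with Benjamini-Hochberg adjustment, and a gene was called changed at an adjusted p under 0.05.

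The CD24 high arrays stood apart before normalization. Over the 16442 gene spots detected on all 7 arrays, the 75th percentile of the sample-channel signal was 607 and 569 on the CD24 high arrays, against 1115 to 1442 on the other Dll1 arrays and 1682 on the Lgr5 array, while the reference channel stayed between 10226 and 10930. The loess step therefore raised the keratin log2 ratios by 4.45 to 5.16 on the CD24 high arrays, by 2.88 to 3.60 on the CD24 medium and low arrays and by 2.06 to 2.47 on the Lgr5 array. Every comparison that involves CD24 high, and where a ratio stands against whole intestine, rests on this step. The analysis was repeated with 3 further scalings that do not use it, chosen after the data were seen: centring each array on its median log ratio, and the sample channel alone scaled to its 75th percentile over all gene spots or over detected spots. Another scaling without it, planned earlier, was quantile normalization of the sample channel alone. The labels' sort was visible in Cd24a, at 3.34 and 3.47 on the CD24 high arrays, 0.88 and 0.745 on the CD24 medium arrays and -0.68 and -0.59 on the CD24 low arrays. Dll1 stood at 2.52 to 2.81 in CD24 medium and low but at 0.61 and -0.04 on the CD24 high arrays, against 0.88 on the Lgr5 array.

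Across the 4 cell fractions Krt20 showed the widest span of the 6 keratins, and its rise from CD24 high to CD24 medium and low was called under every setting run. Krt19 rose from CD24 high to CD24 low under every setting as well. Krt7, Krt8 and Krt18 were higher in CD24 medium and CD24 low than in the Lgr5 fraction in direction under every setting, and the call for Krt18 held throughout. The 6 differences between CD24 high and Lgr5, and the lower Krt18 of CD24 medium, changed call or direction with the scaling. So did the differences of Krt7, Krt8 and Krt23 from CD24 high, which did not pass after loess with the probe used for each gene. Between CD24 low and CD24 medium 0 of the 6 keratins passed the limma test, where 0.114% of all genes did, and 2 had an unadjusted p under 0.05.

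**Figure D1:**
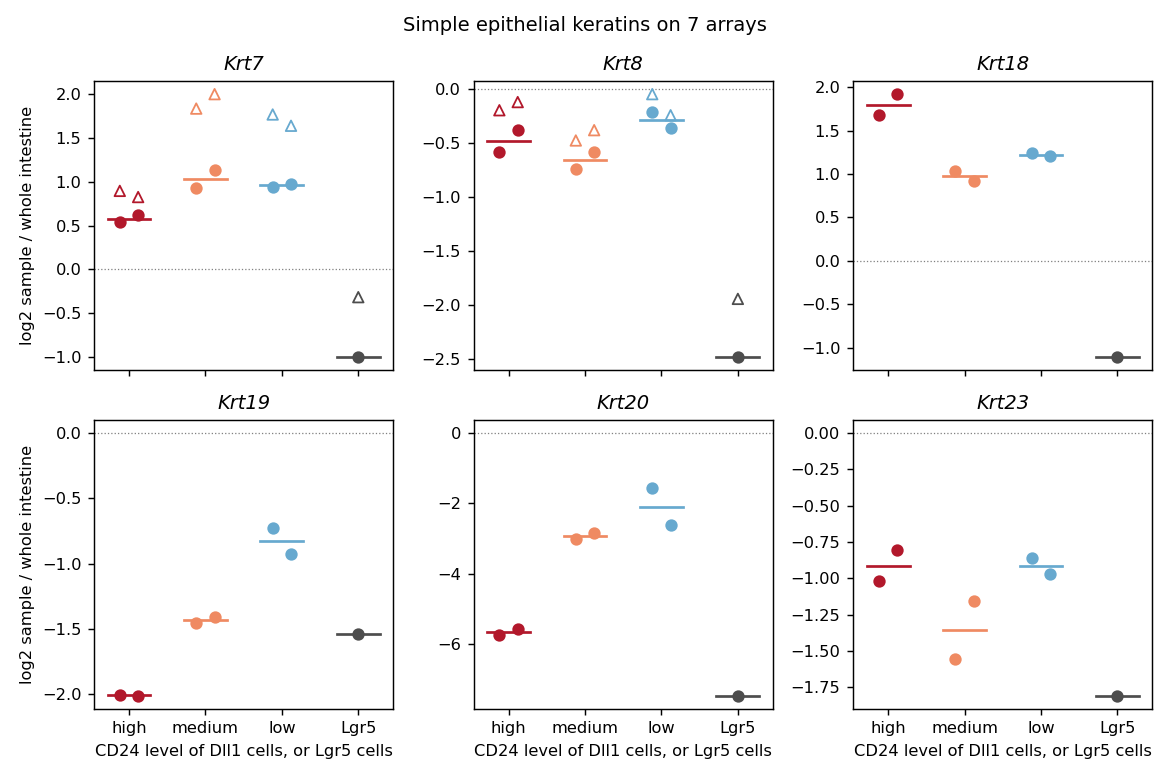
Log2 ratio of sorted cells to whole small intestine for each keratin, 1 point per array, by group; filled circles are the probe used, open triangles the further probe of Krt7 and Krt8, bars group means, and vertical axes differ between panels. Krt20 runs from -7.48 on the Lgr5 array to -1.57 on a CD24 low array, while Krt23 stays between -1.81 and -0.81.

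Krt20, the type I keratin of differentiated intestinal cells, was below whole intestine on all 7 arrays. Its log2 ratio was -5.75 and -5.58 on the CD24 high arrays, -3.02 and -2.84 on the CD24 medium arrays, -1.57 and -2.62 on the CD24 low arrays and -7.48 on the Lgr5 array. The groups did not overlap, and the 2 CD24 low arrays differed more from each other than the replicates of any other group (SD 0.742, n = 2, against 0.123 in CD24 medium and 0.116 in CD24 high). Relative to CD24 high, Krt20 rose 6.65-fold in CD24 medium (log2 difference 2.73, SE 0.330, limma adjusted p = 0.0033) and 11.9-fold in CD24 low (3.57, SE 0.330, limma adjusted p = 0.0011). Over the 24 alternative settings, which include leaving out each array, these differences stayed between 2.65 and 4.03 and between 3.05 and 4.49, and all passed. Some of these settings repeat another or could not move the values. For CD24 low against CD24 high, Krt20 stayed at 3.57 with Aquantile scaling, other probe filters, the mean of all probes and the replicate block. So it did with the compared groups alone, with the variance trend, and without the Lgr5 array or either CD24 medium array. There at most the adjusted p could change. The deposited table repeated the processed signals, at 3.99 in both. Counts of settings throughout include such cases. Within slides, the rise to CD24 medium was 2.73 on slide 1 and 2.74 on slide 2. CD24 low was 0.84 above CD24 medium (95% interval 0.05 to 1.63), which did not pass (limma adjusted p = 0.44).

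Against the Lgr5 array Krt20 was 23.3-fold higher in CD24 medium (4.54, SE 0.404, limma adjusted p = 0.0018) and 41.8-fold higher in CD24 low (5.38, SE 0.404, limma adjusted p = 0.0010). Both passed under all 22 settings available for these comparisons, with ranges of 3.62 to 4.67 and 4.28 to 5.91. CD24 low and Lgr5 were never on the same slide; CD24 medium exceeded Lgr5 by 4.46 on the slide they shared. CD24 high was 1.81 above Lgr5 (SE 0.404, limma adjusted p = 0.015), but the call was lost without CD24 high replicate 2 (1.73, adjusted p = 0.057) and under 7 of the other settings, and the scalings without loess gave -0.21 with median centring, 0.32 with the 75th percentile of all spots, 1.09 with that of detected spots and 0.57 with quantile normalization. The unnormalized sample signal of Krt20 was 265.5 and 256 on the CD24 high arrays and 366 on the Lgr5 array, against 4733 and 5104 on the CD24 medium arrays and 14742 and 4797 on the CD24 low arrays. The order of Krt20 was therefore CD24 low, CD24 medium, CD24 high and Lgr5, in which neither CD24 low and medium nor, across scalings, CD24 high and Lgr5 were separated.

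Markers of 2 lineages were set beside Krt20, since it is known from differentiated cells of several kinds. The mean log2 ratio of 10 enterocyte markers was -3.65 and -3.48 on the CD24 high arrays, -4.17 and -3.94 on the CD24 medium arrays, -2.82 and -3.64 on the CD24 low arrays and -4.61 on the Lgr5 array. That of 8 goblet markers was 1.41 and 0.70 on the CD24 high arrays, 2.84 and 2.22 on the CD24 medium arrays, 3.57 and 2.82 on the CD24 low arrays and -3.29 on the Lgr5 array. Goblet markers thus had the group order of Krt20, with 5 of 8 higher and 1 lower in CD24 medium than in CD24 high. The enterocyte means were lower on the CD24 medium than on the CD24 high arrays, with 1 of 10 markers higher and 2 lower by the test. Of all genes 7.5% were higher and 13.4% lower there, so the enterocyte counts were near the shares of all genes. The CD24 low array with the higher Krt20 also had the higher mean of both lists. Every marker of both lists was well above background on 7 of 7 arrays, and their part in the Krt20 result was not tested.

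**Figure D2:**
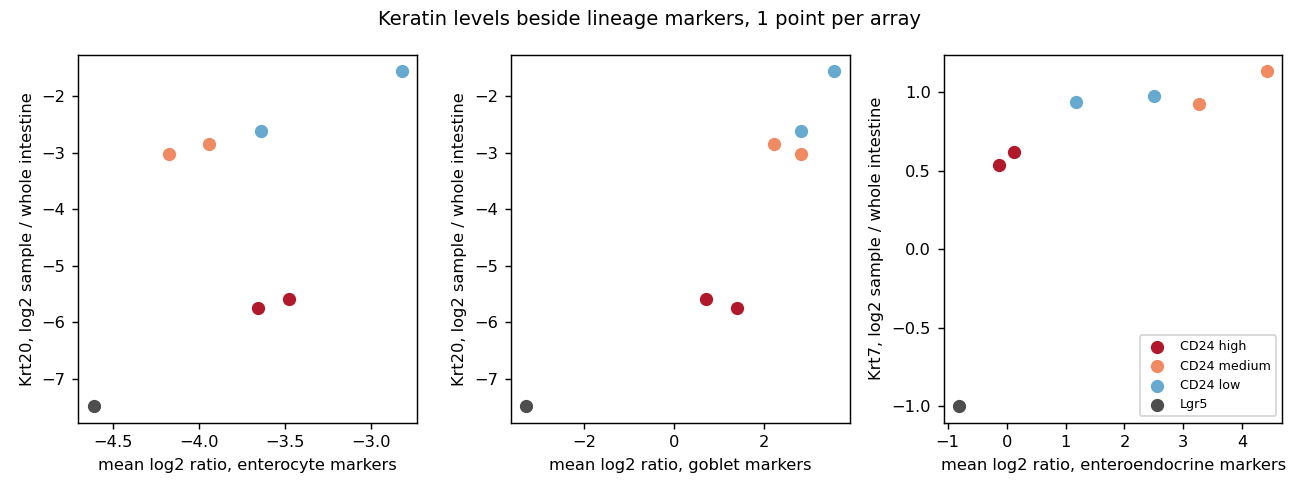
Log2 ratio of Krt20 against the mean log2 ratio of enterocyte markers (left) and goblet markers (middle), and of Krt7 against enteroendocrine markers (right), 1 point per array, coloured by group. CD24 high arrays lie to the right of CD24 medium arrays on the enterocyte axis but lower in Krt20, by 2.73 log2 units between group means, and the 2 Krt7 values in CD24 low lie within those of CD24 medium at lower enteroendocrine means.

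Krt19, a small type I keratin that lacks a tail domain, had log2 ratios of -2.005 and -2.01 on the CD24 high arrays, -1.45 and -1.41 on the CD24 medium arrays, -0.73 and -0.93 on the CD24 low arrays and -1.53 on the Lgr5 array. It was below whole intestine everywhere and lowest in CD24 high, and no groups overlapped. From CD24 high to CD24 low it rose 2.27-fold (1.18, SE 0.153, limma adjusted p = 0.0039), a call that held in all 24 settings with values of 1.08 to 2.35. The rise to CD24 medium was 1.49-fold (0.58, SE 0.153, limma adjusted p = 0.042). This call was lost without CD24 high replicate 1, CD24 high replicate 2, CD24 medium replicate 1 or CD24 medium replicate 2 (adjusted p from 0.11 to 0.20, value 0.56 to 0.60), and in 6 other settings, with the direction kept in all 24. CD24 low was 0.60 above CD24 medium (95% interval 0.23 to 0.97), which did not pass after adjustment (limma adjusted p = 0.28).

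With median centring every keratin was lower in direction in CD24 high than on the Lgr5 array, whereas after loess only Krt19 was. CD24 high was 0.47 below Lgr5 (95% interval -0.92 to -0.02, limma adjusted p = 0.096), and the 4 scalings without loess gave -1.20 to -2.99 with adjusted p of 0.030 or less. CD24 medium was 0.11 above Lgr5 (95% interval -0.34 to 0.56, limma adjusted p = 0.74), and the same 4 scalings turned this to -0.68 to -1.27. CD24 low was 0.71 above (SE 0.188, limma adjusted p = 0.041), a call lost without any 1 of the 6 Dll1 arrays (adjusted p from 0.060 to 0.092) and with slide as a term (adjusted p = 0.17). In 3 of the scalings without loess its sign turned, to values between -0.64 and -0.01. The level of Krt19 in Lgr5 cells relative to CD24 medium and low was thus not settled by these arrays.

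Krt8 is the main type II keratin of simple epithelia and Krt18 its usual type I partner. Krt8 log2 ratios were -0.59 and -0.38 on the CD24 high arrays, -0.74 and -0.58 on the CD24 medium arrays, -0.21 and -0.36 on the CD24 low arrays and -2.48 on the Lgr5 array. Krt18 log2 ratios were 1.67 and 1.92 on the CD24 high arrays, 1.04 and 0.92 on the CD24 medium arrays, 1.24 and 1.20 on the CD24 low arrays and -1.10 on the Lgr5 array. For both genes the Lgr5 array was the lowest, and the 6 Dll1 arrays lay between -0.74 and -0.21 for Krt8 and between 0.92 and 1.92 for Krt18. CD24 medium exceeded Lgr5 by 1.81 for Krt8 (SE 0.201, limma adjusted p = 0.0034) and by 2.08 for Krt18 (SE 0.198, limma adjusted p = 0.0022). CD24 low exceeded Lgr5 by 2.19 for Krt8 (SE 0.201, limma adjusted p = 0.0017) and by 2.33 for Krt18 (SE 0.198, limma adjusted p = 0.0014). The Krt18 calls held in all 22 settings, at 1.02 to 2.17 and 0.90 to 2.59. The Krt8 differences kept their sign in all 22 but lost the call in 3 settings for CD24 medium, where they fell to 0.74 to 1.05, and in 1 for CD24 low, at 0.74, all among the scalings without loess.

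In CD24 high, Krt8 was 1.99 above Lgr5 (SE 0.201, limma adjusted p = 0.00087) and Krt18 was 2.90 above (SE 0.198, limma adjusted p = 0.00025). These values rested on the loess step: Krt8 gave -0.85 with median centring, -0.31 with the 75th percentile of all spots and 0.46 with that of detected spots, and Krt18 gave -0.02, 0.73 and 1.51. Quantile normalization of the sample channel gave 1.02 and 1.53, which passed. Before normalization the Krt18 sample signal was 26064 and 27018 in CD24 high and 25603 on the Lgr5 array, and that of Krt8 was 8523 and 9629 against 18056. The Krt8 and Krt18 levels of CD24 high and Lgr5 cells could therefore not be ordered from these arrays without choosing a scaling.

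Between CD24 levels the partners differed in what passed after loess. Krt18 was lower in CD24 medium than in CD24 high by 1.76-fold (-0.82, SE 0.162, limma adjusted p = 0.017) and -0.57 in CD24 low did not pass (95% interval -0.96 to -0.19, limma adjusted p = 0.055). The decrease lost its call without CD24 medium replicate 1 (-0.88, adjusted p = 0.075), CD24 medium replicate 2 (-0.76, adjusted p = 0.11) or CD24 high replicate 2 (-0.70, adjusted p = 0.080), and with a background offset of 16 (adjusted p = 0.052). It turned into an increase of 0.62 with quantile normalization of the sample channel, 1.04 with median centring and 0.45 with the 75th percentile of all spots, and was -0.05 with that of detected spots. Within slides it was -0.637 and -0.997. The difference in CD24 low turned into an increase that passed with quantile normalization (1.06, adjusted p = 0.016) and with median centring (0.92, adjusted p = 0.0091), and was 0.32 and -0.026 with the 75th percentile of all and of detected spots, which did not pass. Krt8 differed from CD24 high by -0.18 in CD24 medium (95% interval -0.57 to 0.22, limma adjusted p = 0.48) and by 0.20 in CD24 low (95% interval -0.20 to 0.59, limma adjusted p = 0.44), and the 4 scalings without loess gave 0.28 to 1.59 and 0.86 to 1.59. In CD24 medium the increase passed with median centring (limma adjusted p = 0.0007) and the 75th percentile of all spots (limma adjusted p = 0.0053). In CD24 low both passed (limma adjusted p = 0.0011 and 0.0042), as did quantile normalization of the sample channel (limma adjusted p = 0.019). Whether Krt8 and Krt18 responded differently was not tested. The second Krt8 probe gave -0.27 and 0.01 for the same comparisons, and 1.78, 1.51 and 1.79 for CD24 high, medium and low against Lgr5.

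Krt7 is the alternative type II keratin, common in ducts and in some secretory epithelia. After loess it was above whole intestine on every Dll1 array and below it on the Lgr5 array. Its log2 ratios were 0.54 and 0.62 on the CD24 high arrays, 0.93 and 1.13 on the CD24 medium arrays, 0.94 and 0.98 on the CD24 low arrays and -0.997 on the Lgr5 array. Before loess every Krt7 ratio was below whole intestine. They were -4.27 and -4.17 on the CD24 high arrays, -2.52 to -2.05 on the CD24 medium and low arrays and -3.18 on the Lgr5 array. CD24 medium was 4.08-fold above Lgr5 (2.03, SE 0.191, limma adjusted p = 0.0022), a call that held in all 22 settings at 1.13 to 2.13. CD24 low was 3.88-fold above (1.96, SE 0.191, limma adjusted p = 0.0021), and 1 setting, median centring, took it to 0.72 with an adjusted p of 0.051. CD24 high was 1.58 above (SE 0.191, limma adjusted p = 0.0016), but median centring gave -0.87, the 75th percentile of all spots -0.31 and that of detected spots 0.47, while quantile normalization of the sample channel kept the call (0.92, adjusted p = 0.0096).

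Within the Dll1 cells Krt7 was 0.45 higher in CD24 medium (95% interval 0.08 to 0.82, limma adjusted p = 0.088) and 0.38 higher in CD24 low (95% interval 0.00 to 0.75, limma adjusted p = 0.15) than in CD24 high, and neither passed. Its probes disagreed in size: the second probe gave 1.06 and 0.84 for the same comparisons. The mean of both probes gave 0.75 (limma adjusted p = 0.017) and 0.61 (limma adjusted p = 0.035), which passed. The 4 scalings without loess gave 0.75 to 2.00 and 0.67 to 1.59. All of them passed in CD24 medium. In CD24 low all passed but the 75th percentile of detected spots (0.84, limma adjusted p = 0.056). Neuroendocrine cells are a known site of Krt7 in other organs, and the 8 enteroendocrine markers had mean log2 ratios of -0.13 and 0.13 on the CD24 high arrays, 3.26 and 4.42 on the CD24 medium arrays, 1.17 and 2.50 on the CD24 low arrays and -0.81 on the Lgr5 array, with 7 of 8 higher and 0 lower where CD24 medium was set against CD24 high. Of all genes 7.5% were higher and 13.4% lower in that comparison. Of the enteroendocrine markers 6 of 8 exceeded background clearly on both CD24 high arrays, and their part in the Krt7 values was not tested. CD24 low minus CD24 medium was -0.07 (95% interval -0.45 to 0.30) for Krt7, with overlapping groups.

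Krt23, a less studied type I keratin, varied least among the 6. Its log2 ratios were -1.02 and -0.81 on the CD24 high arrays, -1.55 and -1.16 on the CD24 medium arrays, -0.86 and -0.97 on the CD24 low arrays and -1.81 on the Lgr5 array. CD24 high and CD24 low overlapped and differed by -0.00 (95% interval -0.46 to 0.46), and CD24 medium was -0.44 from CD24 high (95% interval -0.90 to 0.02, limma adjusted p = 0.16). Both CD24 high and CD24 low were 0.89 above Lgr5 (SE 0.236, limma adjusted p = 0.027 and 0.040). The first call was lost without CD24 high replicate 2 (0.79, adjusted p = 0.090), and the second without any 1 of the 6 Dll1 arrays (adjusted p from 0.051 to 0.086). Median centring turned both, to -1.02 and -0.032. The 75th percentile of all spots gave -0.40 and 0.094, that of detected spots 0.38 and 0.53 and quantile normalization 0.50 and 0.62. None of these was called. Both calls were also lost with processed signals and with the deposited table (0.63 and 0.68). The CD24 low call was lost as well with an offset of 16 (0.90), slide as a term (0.59) and the compared groups alone (0.89). In CD24 medium against CD24 high median centring turned Krt23 into an increase that passed (0.87, adjusted p = 0.0083), as it did in CD24 low (0.99, adjusted p = 0.0067). Krt23 neighbours Krt20 in the type I cluster, but the fold between CD24 low and Lgr5 was 1.86 for Krt23 against 41.8 for Krt20.

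Counted together, 2 of the 6 keratins were higher (Krt19 and Krt20) and 1 lower (Krt18) in CD24 medium than in CD24 high, where 7.5% of all tested genes were higher, 13.4% lower and 20.9% changed in either direction. In CD24 low against CD24 high 2 keratins, again Krt19 and Krt20, were higher and 0 lower, beside 6.86% of all genes higher, 11.2% lower and 18.1% in either direction. Between CD24 low and CD24 medium the 2 keratins with an unadjusted p under 0.05 were Krt19 and Krt20, and all 20 genes called there were lower in CD24 low. Against Lgr5 the number higher was 5 of 6 in CD24 high, 4 of 6 in CD24 medium and 6 of 6 in CD24 low, with 0 lower, whereas 21.1%, 10.2% and 11.9% of all genes were higher, 14.6%, 8.58% and 9.85% lower and 35.8%, 18.8% and 21.8% changed in either direction. The median difference of the 6 keratins was 1.69, 1.92 and 2.07 in these comparisons, beside 0.10, 0.08 and 0.10 for all genes, and 0.14 and 0.29 on the CD24 medium arrays and low against CD24 high, beside 0.00 and 0.02. The 3 comparisons with Lgr5 share the same single array. In CD24 low against Lgr5 the calls of Krt19 and Krt23 were lost without any 1 of the 6 Dll1 arrays. Centring on the median log ratio gave 0 keratins higher and 4 lower in CD24 high against Lgr5, and 6 of 6 higher in both CD24 medium and CD24 low against CD24 high, and there it called 44.1% and 35.5% of all genes, mostly higher. The split of all calls moved likewise: in CD24 medium against CD24 high 35.9% of called genes were higher, against 57.7% with the scanner's processed signals, 53.8% with quantile normalization of the sample channel and 90.9% with median centring.

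**Figure D3:**
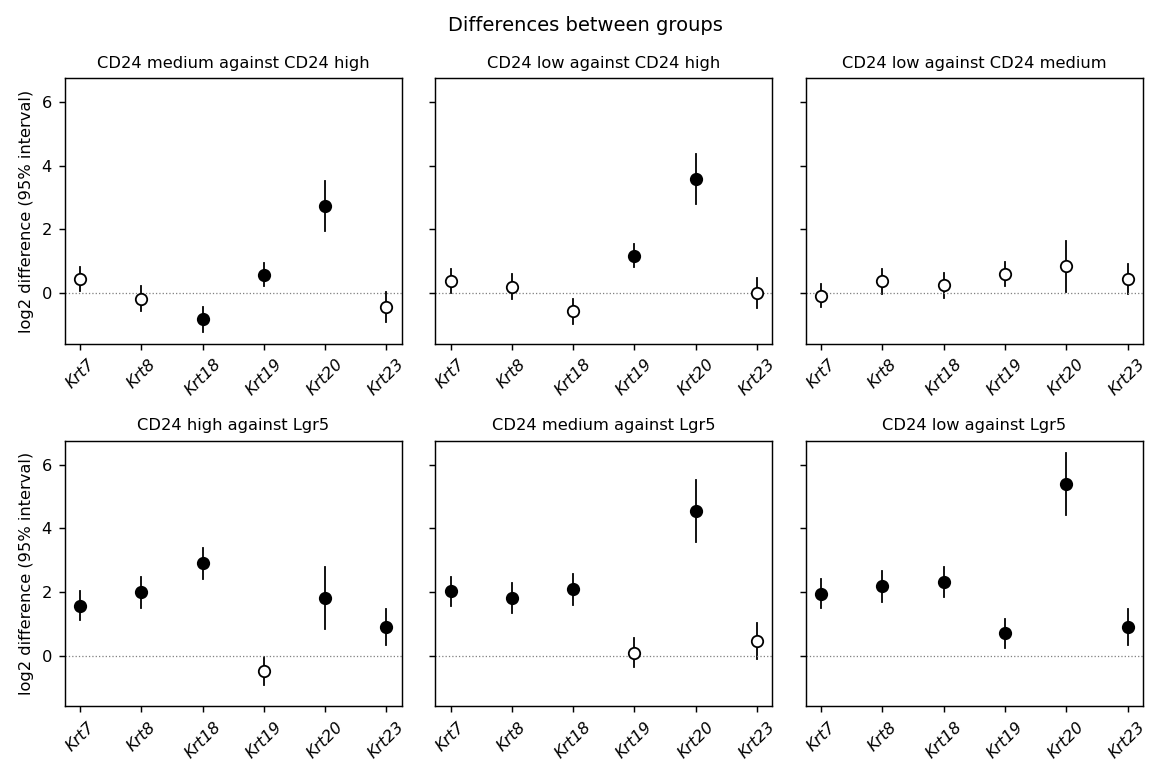
Log2 difference of each keratin in the 6 comparisons, first group minus second, with 95% intervals from limma; filled points passed an adjusted p of 0.05. Krt20 reaches 5.38 in CD24 low against Lgr5, Krt19 is the 1 keratin below 0 in CD24 high against Lgr5 (-0.47), and no point is filled in CD24 low against CD24 medium.

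**Figure D4:**
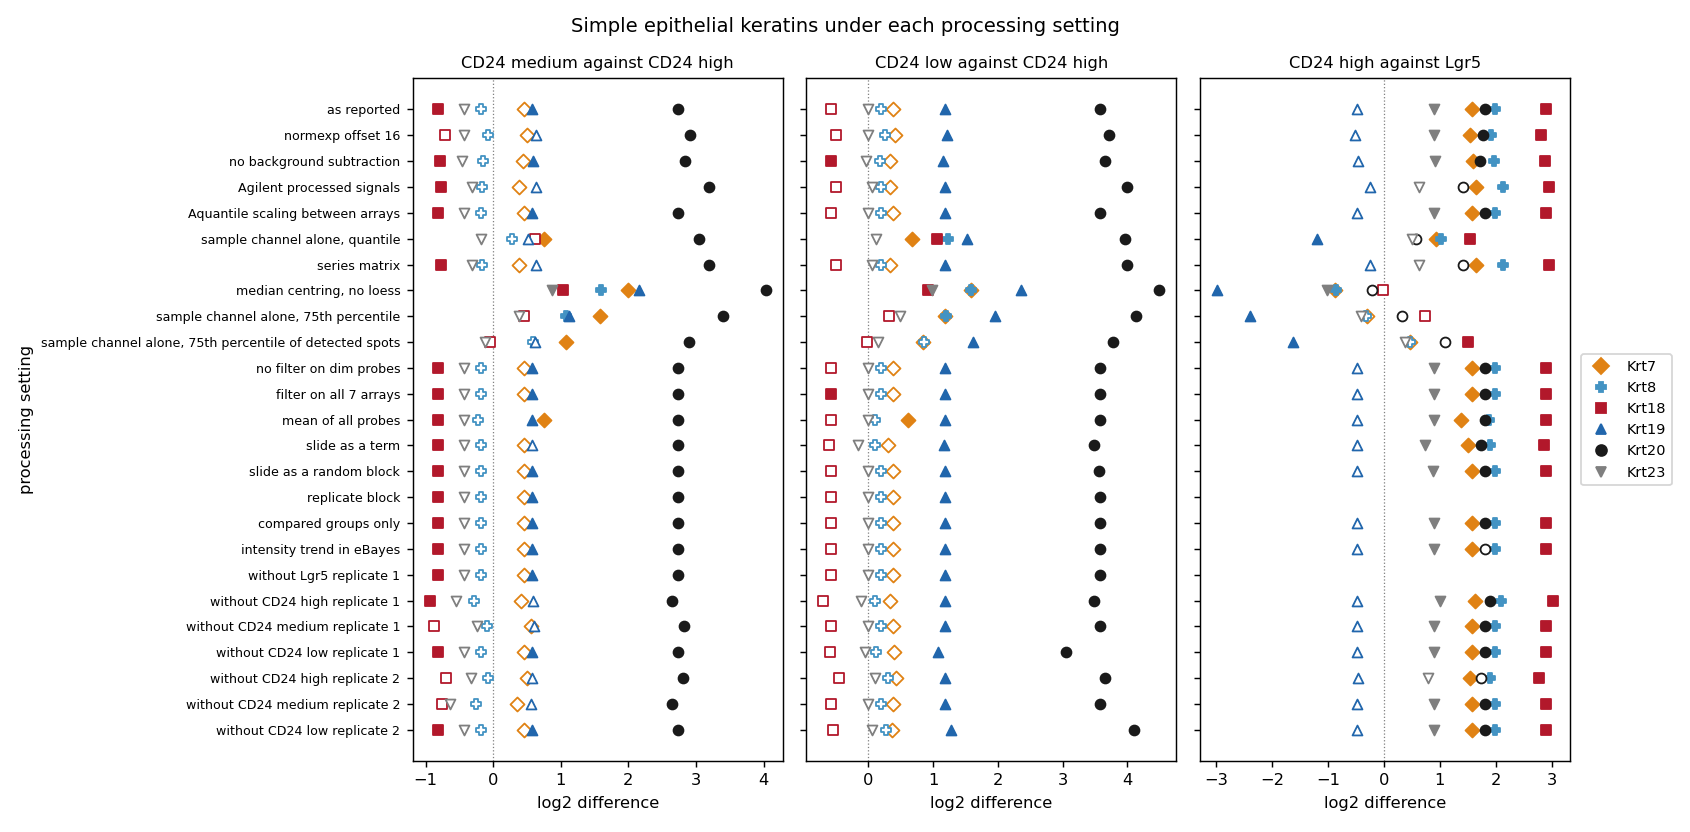
Log2 difference of each keratin under every processing setting (rows) in 3 comparisons, filled where the adjusted p was under 0.05. Krt20 stays between 2.65 and 4.49 in CD24 medium and CD24 low against CD24 high but runs from -0.21 to 1.89 in CD24 high against Lgr5, Krt18 in CD24 medium against CD24 high turns from -0.82 to between -0.05 and 1.04 in the scalings without loess, and Krt7 and Krt8 turn below 0 in CD24 high against Lgr5 in 2 of them.

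The keratins' values moved together only in part. Over the 7 arrays, which share the reference RNA and fall into the 4 groups, Pearson r was 0.93 for Krt8 with Krt18, 0.93 for Krt7 with Krt8, 0.84 for Krt7 with Krt20 and 0.75 for Krt19 with Krt20. Over the 6 Dll1 arrays alone, r was 0.27 for Krt8 with Krt18 and 0.00 for Krt7 with Krt8, so those 2 correlations rested on the Lgr5 array, whereas r was 0.87 for Krt7 with Krt20 and 0.95 for Krt19 with Krt20. The 5 genes whose log2 ratios followed Krt20 most closely over the 7 arrays were Rgs2, Fcgbp, Serpina1d, Phgr1 and Id4, at r of 0.988 to 0.996. Fcgbp is a goblet cell mucus protein and is itself among the goblet markers above. For Krt19 they were Tgtp1, Txn1, Id3, Sqor and Esrra (0.970 to 0.980), and for Krt7 Ndrg1, Ffar2, Sct, Zc3h13 and Borcs6 (0.990 to 0.997), of which Sct encodes the hormone secretin. For Krt8 they were Kdelr3, Galnt6, Gtpbp2, Slc37a1 and Atp9a (0.992 to 0.994), for Krt18 Smim14, Slc16a6, Dap, Med10 and Aph1b (0.994 to 0.997), and for Krt23 Creb3l3, Trpv4, Nckap5, Ablim1 and Trim12c (0.971 to 0.980). With 7 points in 4 groups and 17545 genes to choose from, these values are a description only.

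Other keratins, most of them known from stratified epithelia, hair and nails, gave calls in both directions in CD24 medium against CD24 high and against Lgr5. Of 40 listed, 28 were measured. In CD24 medium against CD24 high 4 were higher and 5 lower, beside 7.5% and 13.4% of all genes. In CD24 low against CD24 high 0 were higher and 4 lower, beside 6.86% and 11.2% of all genes. Against Lgr5 CD24 high had 6 higher and 2 lower, CD24 medium 5 higher and 3 lower, and CD24 low 3 higher and 3 lower. Of all genes 35.8%, 18.8% and 21.8% changed in either direction there. Among 10 measured keratins of stratified epithelia, 5 were higher and 1 lower in CD24 high than in Lgr5, with a median difference of 0.64, and leaving out single arrays gave 2 to 5 higher. Krt5, the type II keratin of basal layers, stood at 2.31 and 1.85 on the CD24 high arrays and between 0.06 and 0.35 on the other 5 arrays. It was 1.87 lower in CD24 medium than in CD24 high (log2 difference -1.87, SE 0.196, limma adjusted p = 0.0020), the opposite order to Krt20, and this passed in all 24 settings at -2.76 to -1.10. Krt16, a type I keratin of activated stratified epithelium, stood at 2.03 and 1.57 on the CD24 high arrays and at -0.18 on the Lgr5 array, a difference of 1.98 (SE 0.316, limma adjusted p = 0.0044) that passed in all 22 settings.

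Linker, keratin-binding and other filament proteins gave calls against Lgr5 and CD24 high and 0 by limma in CD24 low against CD24 medium. All genes called in either direction made up 35.8%, 18.8% and 21.8% in CD24 high, medium and low against Lgr5 and 20.9% in CD24 medium against CD24 high. Of 12 desmosome and plakin linkers, which tie filaments to junctions, 5, 3 and 2 were higher and 1, 0 and 0 lower in CD24 high, medium and low than in Lgr5, and 1 was higher and 2 lower in CD24 medium than in CD24 high. Plec, the gene of the linker plectin, stood at -1.27 on the Lgr5 array and at 0.06 to 0.50 on the Dll1 arrays. Its difference from Lgr5 was 1.34 in CD24 medium (SE 0.181, limma adjusted p = 0.0058) and 1.74 in CD24 low (SE 0.181, limma adjusted p = 0.0025), and both passed in all 22 settings. Of 7 keratin-binding proteins measured of 8, 1, 1 and 0 were higher and 1, 0 and 0 lower in CD24 high, medium and low than in Lgr5. Of 10 other intermediate filament genes measured of 12, 4, 4 and 2 were higher in CD24 high, medium and low than in Lgr5, and 5 were higher and 3 lower in CD24 medium than in CD24 high. Lmna, which encodes the nuclear lamins A and C, was 1.81 above Lgr5 in CD24 medium (SE 0.210, limma adjusted p = 0.0038), which passed in all 22 settings.

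Genes of the brush border and terminal web, the apical structures in which keratin filaments of enterocytes are anchored, gave calls against both Lgr5 and CD24 high. Of these 10 genes, 2 were higher and 3 lower in CD24 medium and 3 higher and 3 lower in CD24 low when set against CD24 high. Of all genes 7.5% were higher and 13.4% lower in CD24 medium, and 6.86% higher and 11.2% lower in CD24 low. Against Lgr5, 21.1%, 10.2% and 11.9% of all genes were higher in CD24 high, medium and low. Of the 10 genes, in turn, 6, 5 and 6 were higher and 0 lower in CD24 high, medium and low than in Lgr5, counts that ranged from 2 to 6, 1 to 5 and 2 to 9 over the settings other than leaving out arrays. Espn, the actin bundler espin, stood at 1.27 and 0.97 on the CD24 high arrays and between -0.91 and -0.20 elsewhere. It was lower by 1.68 in CD24 medium (log2 difference -1.68, SE 0.209, limma adjusted p = 0.0037) and by 1.55 in CD24 low (log2 difference -1.55, SE 0.209, limma adjusted p = 0.0045) than in CD24 high, in all 24 settings. Cdhr5, a protocadherin of microvillus tips, was 2.25 above Lgr5 in CD24 medium (SE 0.217, limma adjusted p = 0.0022) and 2.57 in CD24 low (SE 0.217, limma adjusted p = 0.0013), in all 22 settings.

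Of 8 transcription factors of intestinal differentiation, 4 were higher and 0 lower in CD24 low than in CD24 high, and leaving out single arrays gave 1 to 4 higher. Of all genes 6.86% were higher and 11.2% lower in CD24 low than in CD24 high. Cdx1, a caudal-type homeobox factor, stood at 1.30 and 0.83 on the CD24 high arrays, 1.64 and 1.65 on the CD24 medium arrays, 2.17 and 2.30 on the CD24 low arrays and 0.61 on the Lgr5 array. It was 1.17 higher in CD24 low than in CD24 high (SE 0.195, limma adjusted p = 0.0099), in all 24 settings, with the same order of groups as Krt20. Klf4, a factor of goblet cell differentiation, stood at -4.20 on the Lgr5 array and between 0.65 and 1.87 on the Dll1 arrays, a gap of 5.04 in CD24 medium (SE 0.255, limma adjusted p = 0.00055) that passed in all 22 settings. Between CD24 high and CD24 low Klf4 differed by -0.40 (SE 0.208, limma adjusted p = 0.23), which did not pass.

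The remaining marker lists describe the fractions in which these keratins were read. Beside the counts below, 7.5% of all genes were higher and 13.4% lower in CD24 medium than in CD24 high. In CD24 low against CD24 high these shares were 6.86% and 11.2%. Against Lgr5, 14.6%, 8.58% and 9.85% of all genes were lower in CD24 high, medium and low. Paneth markers averaged 5.07 and 5.23 on the CD24 high arrays, -0.55 and -0.47 on the CD24 medium arrays, -2.82 and -2.71 on the CD24 low arrays and -3.54 on the Lgr5 array, an order opposite to that of Krt19 and Krt20 within the Dll1 cells, with 7 of 7 lower in CD24 medium and in CD24 low than in CD24 high. Stem cell markers averaged 1.93 on the Lgr5 array and -0.65 to 0.52 on the Dll1 arrays, and 6, 7 and 7 of 8 were lower in CD24 high, medium and low than in Lgr5. Markers of mesenchyme and smooth muscle averaged -3.63 on the Lgr5 array and -3.19 to -2.17 on the Dll1 arrays. Of these 8 markers, 5 were lower in CD24 medium than in CD24 high. Against Lgr5, 7 passed as higher for CD24 high, 1 for medium and 4 for low, with median differences of 1.33, 0.47 and 0.93. Immune markers averaged -1.74 against -1.71 to -0.89, with 1 of 6 lower in CD24 medium than in CD24 high. Their counts higher than Lgr5 were 3, 0 and 1, with medians of 0.71, 0.29 and 0.52. Of all genes, 21.1%, 10.2% and 11.9% were higher there, with medians of 0.10, 0.08 and 0.10. Both lists thus differed from Lgr5 in the same direction as the keratin medians. Proliferation markers averaged -1.14 and -1.44 on the CD24 high arrays, -0.032 and -0.21 on the CD24 medium arrays, 0.31 and 0.36 on the CD24 low arrays and 1.102 on the Lgr5 array. Within the Dll1 cells this was the group order of Krt19 and Krt20, without overlap. Against CD24 high 6 of 8 proliferation markers were higher and 1 lower in CD24 medium, and 7 were higher and 0 lower in CD24 low, while 7, 5 and 3 were lower in CD24 high, medium and low than in Lgr5. Of 7 tuft markers 1 was lower in CD24 medium and 3 in CD24 low when set against CD24 high, and 3, 1 and 1 were higher in CD24 high, medium and low than in Lgr5. The tuft and immune counts lower in CD24 medium than in CD24 high were near the share of all genes. Of 5 mesothelium markers 1 could be measured, and it did not pass in any comparison. The part of these cell types in the keratin values was not tested.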

How the data were processed

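The scanner files of 7 dual-colour Agilent whole mouse genome arrays were deposited by the authors as intensity values of each spot, extracted with Agilent Feature Extraction 10.5.1.1, per the file headers. Per the labels, 100 ng of total RNA was amplified and the sorted cells were labelled with Cy3 and whole small intestine with Cy5, with no dye swap. The value table deposited by the authors held log10 ratios of sample over reference, a direction and scale found by comparison with the scanner files, and served as an alternative.

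Mean signals were background-corrected (normexp, offset 50), normalized by loess within each array (span 0.3) and turned to log2 sample over reference with limma 3.58.1 in R 4.3.3. Probes well above background in the sample channel on 2 or more of 7 arrays were kept (24509 of 41174), and the brightest probe stood for a gene. Of the probes, 26918 were named through RefSeq accessions and 14256 kept the file's name. A model with 1 mean per group was fitted over all 7 arrays (3 residual degrees of freedom) for 6 comparisons, with empirical Bayes moderation and Benjamini-Hochberg adjustment at 0.05. On simulated data for CD24 medium against CD24 high, the code called 17 of 100 genes changed by 1 log2 unit and 72 of 100 changed by 2. It also called 7 unchanged genes. Far more genes were called in the real comparison (3662), which alters the adjustment, so these rates need not hold for the keratins. Arrays lay on 2 slides, with CD24 low on slide 2 and Lgr5 on slide 1. Replicate correlations of the log2 ratios were 0.92, 0.94 and 0.90 in CD24 high, medium and low, and the number of arrays limits the precision.

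The members and lists were chosen with earlier results of these data known. All 6 keratins were named, with the 5 genes of highest Pearson r for each, up to 3 called members of each pathway list and up to 2 of each marker list by absolute difference. The genes printed were picked from these after their values and their stability over settings were seen. Sequences came from the array files and RefSeq tables.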

Additional observations from a re-analysis of the deposited data

How the results depend on the processing

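Besides leaving out each array, settings changed the background correction, signal source, normalization, probe filter, probe choice, slide, block, samples fitted and variance trend. Of the differences of single keratins, 499 under these settings kept direction and side of the threshold, 38 lost and 18 gained the call and 39 turned sign. Leaving out arrays kept 210, lost 21 and turned 3. These counts include settings that could not move a value, such as Aquantile scaling. The number of keratins changed in CD24 medium against CD24 high was 3, and was 1 with an offset of 16 and 6 with median centring. In CD24 low against CD24 high it was 2, and 5 with quantile normalization of the sample channel, 6 with median centring and 4 with the 75th percentile of all spots. In CD24 high against Lgr5 it was 5, and 3 with the scanner's processed signals, 3 with the deposited value table, 1 with the 75th percentile of all spots and 2 with that of detected spots. The 5 were all higher and left out Krt19, whereas the 1 was Krt19, lower (-2.40, adjusted p = 0.00021), and the 2 were Krt18, higher, and Krt19, lower (-1.62, adjusted p = 0.012). In CD24 low against Lgr5 it was 6, and 2 with median centring. Without single arrays, Krt19 lost its call in CD24 medium against CD24 high whenever a replicate of either group was left out. Krt18 lost its call there without CD24 medium replicate 1, CD24 medium replicate 2 or CD24 high replicate 2. In CD24 high against Lgr5, Krt20 (1.73) and Krt23 (0.79) lost theirs without CD24 high replicate 2. In CD24 low against Lgr5, Krt19 (0.61 to 0.81) and Krt23 (0.84 to 0.95) lost theirs without any 1 of the 6 Dll1 arrays. The keratins called stayed the same in CD24 low against CD24 high and in CD24 medium against Lgr5. In CD24 low against CD24 medium none was called. Median centring turned Krt8 (1.59), Krt18 (1.04) and Krt23 (0.87) in CD24 medium against CD24 high, Krt18 (0.92) and Krt23 (0.99) in CD24 low against CD24 high, Krt8 (-0.0040) and Krt18 (-0.12) in CD24 low against CD24 medium, Krt7 (-0.87), Krt8 (-0.85), Krt18 (-0.021), Krt20 (-0.21) and Krt23 (-1.02) in CD24 high against Lgr5, Krt19 (-0.84) and Krt23 (-0.15) in CD24 medium against Lgr5, and Krt19 (-0.64) and Krt23 (-0.032) in CD24 low against Lgr5. The 75th percentile of all spots turned, in the same order of comparisons, Krt8 (1.08), Krt18 (0.45) and Krt23 (0.38), Krt18 (0.32) and Krt23 (0.50), Krt18 (-0.13), Krt7 (-0.31), Krt8 (-0.31) and Krt23 (-0.40), Krt19 (-1.27) and Krt23 (-0.020), and Krt19 (-0.45). That of detected spots turned Krt8 (0.58) in CD24 medium and Krt23 (0.15) in CD24 low against CD24 high, and Krt19 in CD24 medium (-0.999) and low (-0.0098) against Lgr5. Quantile normalization of the sample channel turned Krt8 (0.28) and Krt18 (0.62) in CD24 medium, Krt18 (1.06) and Krt23 (0.12) in CD24 low against CD24 high, and Krt19 (-0.68) in CD24 medium against Lgr5. Krt23 in CD24 low against CD24 high was 0.056 with processed signals and with the deposited table and ranged from -0.11 to 0.11 without single arrays, and Krt7 in CD24 low against CD24 medium ranged from -0.18 to 0.029. The cause was not tested. These scalings also moved the median of all genes, to between -0.70 and 0.42 in CD24 medium against CD24 high, -0.44 and 0.30 in CD24 low against CD24 high, -0.35 and 1.09 in CD24 high against Lgr5, -0.05 and 0.31 in CD24 medium against Lgr5 and -0.13 and 0.62 in CD24 low against Lgr5. Less that median, the calls of Krt20 in CD24 medium and low against CD24 high and Lgr5, of Krt19 in CD24 low against CD24 high, and of Krt7, Krt8 and Krt18 in CD24 medium and low against Lgr5 kept their sign in every setting. All genes called ranged, with the reported count first, from 3662 to between 1276 and 8080 in CD24 medium against CD24 high, 3173 to between 1670 and 6237 in CD24 low against CD24 high, 20 to between 9 and 87 in CD24 low against CD24 medium, 6253 to between 4865 and 11110 in CD24 high against Lgr5, 3284 to between 1383 and 4191 in CD24 medium against Lgr5 and 3806 to between 1397 and 5299 in CD24 low against Lgr5. Replicate 1 less replicate 2 correlated over genes at 0.30 (CD24 high with medium), -0.01 (high with low) and 0.48 (medium with low). Whether samples with the same replicate number share a preparation was not tested. With the replicate block 3 keratins changed in CD24 medium against high, 2 in low against high and 0 in low against medium. Of all genes 4023, 3606 and 29 were called there. The Lgr5 array has no number and was outside that fit.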
